A study of Arabidopsis thaliana with 16 samples.

Results

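Gene expression was compared between seedlings of Arabidopsis thaliana Col-0 kept for 3 h in 100 µM MG132 and untreated Col-0 seedlings. The libraries were chosen by their titles, 4 in each group, which makes 8 of the 16 RNA-seq libraries of the series. No gene was left out. The rest of the series is Col-0 after 24 h of 100 µM MG132 and untreated seedlings of the mutants rpn12a-1 and rpn10-1. Those libraries also entered the filter, the scaling and the shared estimate of the spread in the main fit. Col-0 is the common laboratory accession, and neither of the compared groups carries a named mutation or transgene. Seedlings of both groups grew in liquid culture under constant light for 5 days. The untreated seedlings were then harvested at once, and the treated seedlings had their medium exchanged for fresh medium with the drug. A group with fresh medium and no drug for 3 h is not among the samples analysed here. The effects of MG132, of its solvent, of the fresh medium and of the elapsed 3 h therefore cannot be told apart in any value below. Whole seedlings were extracted, so fewer cells of a type and less RNA per cell cannot be told apart. Replicates 3 and 4 of both groups carry a note of a technical replicate in their labels and replicates 1 and 2 do not. These are called the noted and the unnoted library set, and the model held a term for it. Whether the replicates are separate cultures is not in the labels. The p-values then cover no more than the spread between these libraries, and that spread may be technical.

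The 26S proteasome is the protease complex that degrades proteins marked with chains of ubiquitin. It consists of a barrel-shaped core particle, whose beta subunits cut the substrate, and a regulatory particle, which binds ubiquitin, unfolds the substrate and feeds it into the core. MG132 is a peptide aldehyde that blocks the active sites of the core. In plants, many signalling routes run through the degradation of regulators by this complex, among them those of auxin, gibberellin, ethylene and light. Loss of proteasome activity is known to raise transcripts of the proteasome's own subunits, and in Arabidopsis the transcription factors NAC053 and NAC078 are known as regulators of that response.

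Total counts of the 8 libraries ran from 6646134 to 16739857, and 22120 to 23630 genes had at least 1 count. No 2 libraries held identical counts. Of 33602 genes in the files, 21205 had enough reads to be tested. Seedling markers were present: photosynthesis genes took 12.1% ± 1.29 of all counts in untreated and 10.2% ± 1.21 in treated libraries (SD, n = 4 each), while none of 6 flower and tapetum markers passed the filter and 2 of them were at 0 in all 8 libraries. Transcripts of the plastid genome took 0.219% to 2.04% of the counts in untreated and 0.0718% to 1.66% in treated libraries, with the higher values in the noted set of each group.

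After 3 h, 3800 of the 21205 tested genes differed between the groups at an adjusted p below 0.05 (edgeR quasi-likelihood test), which is 17.9%. Of these, 1841 genes, or 8.68% of those tested, were higher in MG132, and 1959 genes, or 9.24%, were lower. "Rose" and "fell" below refer to genes that passed this test, fold changes are on the log2 scale as 3 h minus untreated with the approximate standard error (SE) of the fit, and levels are CPM (read counts divided by library size, in the usual unit), with library sizes scaled by the trimmed mean of M values and listed for replicates 1 to 4. The median log2 fold change over all tested genes was -0.01. The median was 0.77 for genes that rose and -0.75 for those that fell. Large changes were more often rises: 357 genes rose and 115 fell at least 4-fold, while 49 rose and 2 fell at least 32-fold. The 4 libraries of one group lay wholly above or below those of the other for 1410 of the genes that rose (76.6%), for 1424 of those that fell (72.7%) and for 17.8% of all tested genes. A gene's group is described below by how many members rose and fell and by its median, to be read against 8.68%, 9.24% and -0.01 for all tested genes. Lists and their members were chosen with earlier results of these data known, so the list counts are not independent of these data.

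**Figure D1:**
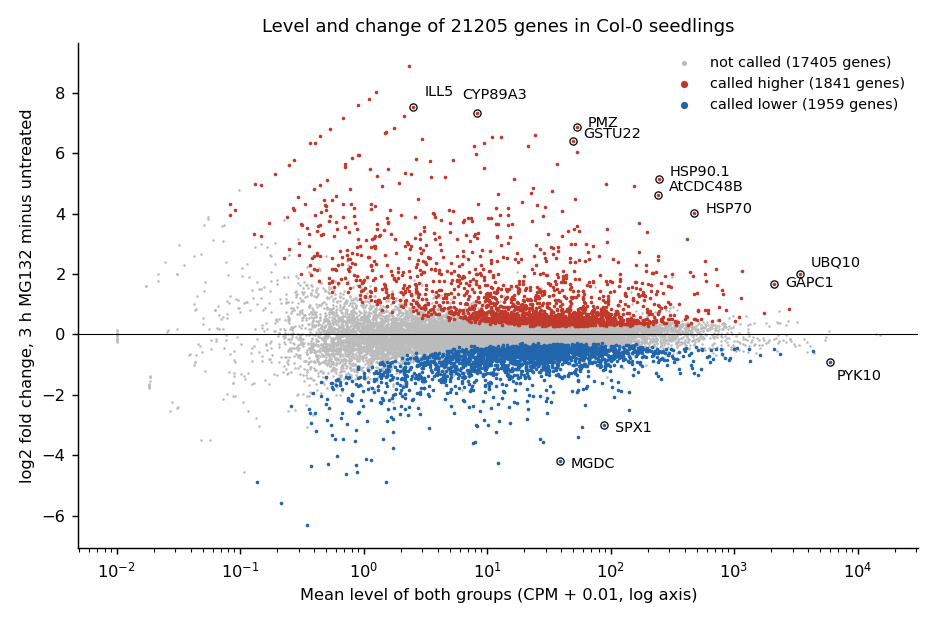
Each point is 1 of the 21205 tested genes, with its mean level over the 8 libraries in CPM on a log axis and its log2 fold change of 3 h MG132 against untreated on the vertical axis. The 1841 genes that rose and the 1959 that fell are coloured, and the points reach further from 0 on the upper side, where 49 genes lie beyond a 32-fold change.

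All 24 genes of the core particle rose. Their median log2 fold change was 1.497 and their range 0.69 to 3.19. All 24 were called when each library was left out in turn, and the median was 1.37 in the unnoted set and 1.65 in the noted set. Together the core genes took 0.161% ± 0.0166 of all counts in untreated libraries and 0.447% ± 0.0353 in treated ones (SD, n = 4). AT2G05840 encodes PAA2, a form of the first alpha subunit, on chr2:2234019-2236470. Its level was 80.1, 83.7, 70.1 and 64.8 CPM in untreated libraries and 409, 375, 475 and 372 CPM after 3 h. The 2 groups lay far apart, and the log2 fold change was 2.46 (SE 0.13, edgeR adjusted p = 6.89e-09). AT4G15165, annotated as a member of the Ntn hydrolase superfamily to which core subunits belong, moved most within the list, from 1.72, 1.74, 1.16 and 1.87 CPM to 18.4, 15.6, 13.3 and 12.6 CPM (log2 fold change 3.19, SE 0.18, edgeR adjusted p = 1.30e-08). PBB2, a form of the beta subunit with trypsin-like activity, went from 52.9, 58.4, 43.6 and 39.1 CPM to 207, 174, 202 and 179 CPM. Its groups did not overlap (log2 fold change 1.99, SE 0.12, edgeR adjusted p = 2.31e-08). The smallest change of the list was that of AT5G35590, which encodes PAA1, the other form of the first alpha subunit, from 87.7, 98.1, 76.1 and 71.99 CPM to 140.5, 132.04, 147 and 114 CPM (log2 fold change 0.69, SE 0.11, edgeR adjusted p = 6.64e-04).

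The regulatory particle moved in the same direction with some exceptions: 27 of 32 genes rose, none fell, and the median was 1.33. Its list had 26 to 28 members called when each library was left out in turn. AT5G20000, annotated as an AAA-type ATPase and listed as the second copy of the base ATPase gene RPT6A, was 40.00, 37.1, 28.8 and 29.2 CPM in untreated libraries and 344, 275, 422 and 390.1 CPM after 3 h. That is 10.6-fold higher (log2 fold change 3.40, SE 0.16, edgeR adjusted p = 2.11e-09), the largest change of the list. RPT6A itself was 83.03, 78.6, 75.1 and 76.8 CPM and 92.7, 84.2, 100.1 and 98.1 CPM. The groups of RPT6A did not overlap, yet the test did not call it (log2 fold change 0.26, SE 0.09, edgeR adjusted p = 0.0631), and without 3 h replicate 2 it did (log2 fold change 0.31, edgeR adjusted p = 0.0388). The copies are close in sequence and their reads may have been split in counting, so the pair is uncertain. MEE34, a Mov34/MPN/PAD-1 family protein of the regulatory particle, rose from 19.3, 19.7, 19.9 and 17.98 CPM to 86.1, 71.7, 89.99 and 78.4 CPM (log2 fold change 2.09, SE 0.11, edgeR adjusted p = 7.43e-09). RPN12b stayed under 1 CPM in every library, at 0.594, 0.717, 0.362 and 0.277 CPM and 0.709, 0.426, 0.832 and 0.557 CPM, and did not pass the test (log2 fold change 0.40, edgeR adjusted p = 0.561).

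Many promoters of these genes carried the element TGGGC, which is part of a site linked to proteasome genes in Arabidopsis. It was searched on both strands, where GCCCA is its reverse complement, in a window from 250 bases before to 50 after each annotated start. The element was present in 16 of 24 core promoters (66.7%), in 17 of 32 regulatory particle promoters (53.1%) and in 29.0% of 21037 promoters of tested nuclear genes. It was just as frequent in gene groups that moved little or differently, with 66.1% of ribosomal protein promoters and 75.0% of small heat shock protein promoters. Among genes called higher 32.7% carried it, among those higher by at least 4-fold 23.0%, and among those called lower 21.0%. The 250 bases before the start of PBB2 and of RPN1B, which encodes a scaffold subunit of the regulatory particle, are shown because the element recurs near the start in both. They are from RefSeq, build TAIR10.1, written in the gene's direction from 5′ to 3′, and capitals mark TGGGC or GCCCA.
PBB2, minus strand of chr5:16250926-16251175: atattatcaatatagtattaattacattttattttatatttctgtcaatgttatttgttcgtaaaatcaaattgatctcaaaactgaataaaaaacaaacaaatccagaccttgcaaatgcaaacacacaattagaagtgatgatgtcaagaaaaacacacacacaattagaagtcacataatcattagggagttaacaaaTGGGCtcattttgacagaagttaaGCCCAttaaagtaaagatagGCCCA
RPN1B, minus strand of chr4:14072583-14072832: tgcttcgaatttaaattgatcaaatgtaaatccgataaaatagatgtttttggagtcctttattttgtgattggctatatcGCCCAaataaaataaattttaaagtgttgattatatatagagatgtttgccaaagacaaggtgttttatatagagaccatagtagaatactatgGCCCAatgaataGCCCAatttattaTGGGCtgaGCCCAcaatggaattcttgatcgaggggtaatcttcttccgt
PBB2 held 3 matches, which begin 49, 25 and 5 bases before the start, and RPN1B held 5, at 169, 75, 63, 50 and 42 bases. A match describes letters in this window and does not show that a factor binds there.

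Arabidopsis has 2 gene copies for many proteasome subunits, and the copies of a pair moved by different amounts. For 14 such pairs, the log2 ratio of the copies' CPM was taken within each library, with 0.1 CPM added, so that depth and scaling cancel. The ratio is not corrected for gene length, so only its change between groups is read. In 12 of 14 pairs the 4 ratios at 3 h did not overlap the 4 untreated ratios (exact permutation test, two-sided p = 0.0286, the smallest that 4 against 4 libraries allow, adjusted p = 0.0334 over the 14 pairs). RPT6A and AT5G20000, with the uncertain counts given above, are not among these 14 pairs, nor are the core genes AT1G16470, AT1G79210, PAC1 and AT4G15165. The pair ratios were added after the data were seen, so the count of 12 holds for the 14 chosen pairs only. No share was computed for ratios of other gene pairs. Taken singly, 17.8% of all tested genes and 76.6% of those that rose had groups without overlap. The 12 include RPN12b to RPN12a (change -1.33). RPN12b stayed under 1 CPM, so the added 0.1 CPM weighs on that ratio. Within the 14, the ratio of PAA2 to PAA1 shifted most, from -0.16 ± 0.05 in untreated to 1.61 ± 0.10 in treated libraries (SD, n = 4), a change of 1.77. RPT5B, an ATPase of the base ring, gained on RPT5A by 1.62, from -2.43 ± 0.11 to -0.82 ± 0.08. RPT5B was 22.1, 23.4, 22.8 and 24.00 CPM in untreated and 121, 100.1, 185 and 152 CPM in treated libraries, while RPT5A was 130.4, 125, 125 and 118 CPM and 215, 185, 302 and 272 CPM. Both copies rose, at log2 fold changes of 2.58 and 0.95 (edgeR adjusted p = 2.39e-08 and 1.10e-04).

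PBB2 gained on PBB1 by 1.27, and AT1G04810 gained on AT2G32730, the other gene for the scaffold subunit Rpn2, by 1.09. PBB1 went from 122, 119.9, 97.4 and 91.6 CPM to 189, 185, 176 and 154 CPM (log2 fold change 0.72, edgeR adjusted p = 4.74e-05). AT1G04810 went from 71.5, 72.3, 71.6 and 68.8 CPM to 237, 203, 441 and 396 CPM (log2 fold change 2.12, edgeR adjusted p = 7.42e-07). AT2G32730 went from 156, 143, 145 and 146 CPM to 248, 214, 391 and 367 CPM (log2 fold change 1.02, edgeR adjusted p = 2.02e-04), so the copy with the lower count in untreated libraries drew level with the other. In 5 pairs the second-named copy lost ground. RPT2b fell behind RPT2a, both ATPases of the base ring, by 1.20 on the log2 ratio, from -0.83 ± 0.08 to -2.03 ± 0.27. RPT2a rose from 119.8, 124, 108 and 101 CPM to 409, 330.1, 516 and 493 CPM (log2 fold change 1.93, edgeR adjusted p = 1.74e-07), and RPT2b from 67.98, 68.2, 56.9 and 60.6 CPM to 106, 101, 113 and 100.01 CPM (log2 fold change 0.73, edgeR adjusted p = 4.35e-05). RPN1B also rose less than RPN1A, with 67.2, 61.7, 64.5 and 59.3 CPM in untreated and 121, 97.5, 147 and 149.7 CPM in treated libraries, against 153, 148, 143 and 136 CPM and 379, 341, 547 and 522 CPM for RPN1A. PAE2 rose less than PAE1, the forms of the fifth alpha subunit, by 0.48: PAE1 reached 200.4, 186, 181 and 166 CPM from 56.96, 63.9, 47.8 and 48.3 CPM, and PAE2 reached 136, 128, 117 and 107 CPM from 56.2, 56.4, 44.6 and 44.5 CPM. The pairs whose ratios overlapped between groups were PBD (exact permutation p = 0.0571) and RPN5 (exact permutation p = 0.2857).

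**Figure D2:**
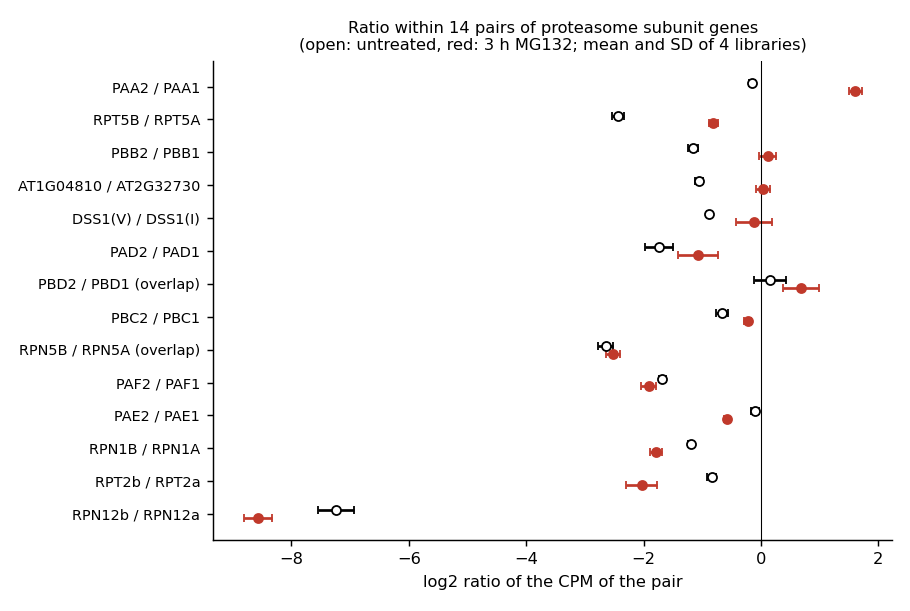
Each of 14 proteasome subunits encoded by a pair of genes has an open point for the mean log2 ratio of the copies' CPM over the 4 untreated libraries and a red point for that over the 4 libraries of 3 h MG132, with bars for the SD. The treated libraries do not overlap the untreated ones in 12 pairs, lying to the right for pairs such as PAA (change 1.77) and to the left for pairs such as RPT2 (change -1.20).

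Of 20 genes for proteasome assembly and associated factors, 14 rose and none fell, with a median of 0.87. AtCDC48B, a gene for the ATPase CDC48 that extracts ubiquitinated proteins from complexes and membranes, was 20.5, 17.01, 18.4 and 18.3 CPM in untreated and 391, 313, 652 and 517 CPM in treated libraries. It rose 24.6-fold (log2 fold change 4.62, SE 0.19, edgeR adjusted p = 7.88e-10). CDC48 itself, already abundant, rose 4.26-fold, from 462, 422, 426 and 402 CPM to 1495, 1209, 2649 and 2174 CPM (log2 fold change 2.09, SE 0.18, edgeR adjusted p = 1.45e-06). PA200, an activator that caps the core in place of the regulatory particle, rose from 71.5, 56.1, 74.8 and 64.5 CPM to 303, 245, 534 and 579 CPM (log2 fold change 2.60, SE 0.23, edgeR adjusted p = 1.88e-06). AT1G67250, annotated as the maturation factor UMP1 that helps assemble the core, rose from 35.8, 39.5, 26.97 and 29.8 CPM to 126, 119.8, 119 and 78.03 CPM (log2 fold change 1.75, edgeR adjusted p = 2.70e-07). Both CDC48 genes and PA200 were higher in the noted than in the unnoted 3 h libraries, and the 2 groups did not overlap for any of these 4 genes.

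Of 11 genes that encode ubiquitin or its activating enzyme, 7 rose and none fell, with a median of 0.42. Without untreated replicate 3, untreated replicate 4, 3 h replicate 3 or 3 h replicate 4, 5 rose. UBQ10, a polyubiquitin gene, was 1292, 1436, 1402 and 1270.1 CPM in untreated and 4284, 4180.2, 7670.3 and 5997 CPM in treated libraries (log2 fold change 2.003, SE 0.17, edgeR adjusted p = 9.84e-07). UBQ14 rose from 281, 331, 229 and 233 CPM to 820.4, 861, 1096 and 877 CPM (log2 fold change 1.77, edgeR adjusted p = 1.68e-06). UBQ3 rose less, from 490.2, 439, 697 and 474 CPM to 869, 819.5, 1146 and 1157 CPM (log2 fold change 0.92, edgeR adjusted p = 4.21e-04). UBQ5, a fusion of ubiquitin with a ribosomal protein, had 399, 438, 306 and 333 CPM and 446, 499.9, 443 and 328 CPM, and its groups overlapped (log2 fold change 0.22, edgeR adjusted p = 0.225). Polyubiquitin genes share near-identical repeats, so their counts may be split between them. The polyubiquitin genes named here rose by different amounts, and the ubiquitin fusion gene did not pass the test.

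NAC053 and NAC078 are NAC factors held at membranes until they are cleaved and move to the nucleus. NAC053, on chr3:3271217-3274176, was 18.3, 16.1, 14.9 and 15.6 CPM in untreated and 32.7, 27.97, 53.4 and 45.8 CPM in treated libraries (log2 fold change 1.29, SE 0.20, edgeR adjusted p = 3.54e-04). NAC078, which is AT5G04410 on chr5:1243684-1246684, was 59.5, 65.1, 62.04 and 59.5 CPM and 93.97, 95.4, 107 and 98.99 CPM (log2 fold change 0.68, SE 0.09, edgeR adjusted p = 1.22e-04). Neither gene's groups overlapped, and the treated NAC053 libraries of the noted set were above those of the unnoted set. Of 14 tested NAC genes listed together as membrane-bound, 5 rose and none fell. Those were NAC053, NAC078, NAC13, NAC050 and NAC052, of which NAC050 and NAC052 are known as nuclear partners of the histone demethylase JMJ14, so the name of the list does not describe them. NAC13, known as a regulator of mitochondrial retrograde signalling, moved most, from 8.51, 8.61, 8.53 and 11.2 CPM to 57.4, 41.3, 77.3 and 59.3 CPM (log2 fold change 2.66, SE 0.17, edgeR adjusted p = 6.39e-08). NAC050 rose from 17.4, 17.01, 20.1 and 21.9 CPM to 52.6, 35.1, 99.3 and 77.5 CPM (log2 fold change 1.73, edgeR adjusted p = 8.17e-06).

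Genes known to rise when mitochondrial respiration is disturbed were among the strongest responders: 14 of 15 rose, none fell, and the median was 3.15. The count stayed at 14 when each library was left out in turn, but the list was chosen with earlier results of these data known. AOX1A, the alternative oxidase that lets electrons bypass part of the respiratory chain, was 20.7, 24.2, 16.1 and 19.8 CPM in untreated and 174, 179, 182 and 139 CPM in treated libraries. It rose 8.39-fold (log2 fold change 3.07, SE 0.12, edgeR adjusted p = 7.88e-10), and the groups were far apart. SOT12, a sulfotransferase, rose 12.8-fold, from 23.03, 26.4, 24.7 and 24.3 CPM to 349, 333, 301 and 279 CPM (log2 fold change 3.68, SE 0.12, edgeR adjusted p = 2.25e-10). UGT74E2, a glycosyltransferase that acts on the auxin indole-3-butyric acid, rose from 3.10, 3.79, 4.19 and 6.64 CPM to 83.05, 65.5, 144 and 105 CPM (log2 fold change 4.49, SE 0.20, edgeR adjusted p = 1.45e-09). AT2G41730, annotated only as a calcium-binding site protein, rose from 2.57, 4.10, 2.46 and 2.84 CPM to 64.4, 60.9, 55.6 and 41.8 CPM (log2 fold change 4.23, edgeR adjusted p = 2.19e-09). AT2G21640, annotated as a marker of the oxidative stress response, rose from 3.17, 4.00, 4.34 and 6.501 CPM to 89.6, 65.03, 91.2 and 60.1 CPM (log2 fold change 4.09, edgeR adjusted p = 4.79e-09). AT2G04050, a transporter of the MATE efflux family, rose from 20.7, 17.7, 16.3 and 23.9 CPM to 104, 94.3, 135 and 119.9 CPM (log2 fold change 2.51, edgeR adjusted p = 1.49e-07). AOX1B had no counts in any untreated library and 1.65, 0.994, 1.66 and 1.02 CPM after 3 h, which is at least 23.7-fold higher when 3 counts over the 4 untreated libraries are taken as the floor.

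The mitochondrial dysfunction motif, which is CTTG, a gap of 5 bases and then CAAG or CACG, is known as a binding site of NAC factors such as NAC13 and was searched on both strands. It was present in 1.25% of all 21037 promoter windows, in 4.62% of those of genes called higher, in 14.3% of those higher by at least 4-fold and in 0.716% of those called lower. In the mitochondrial list 9 of 15 windows (60.0%) held it, and 4 of 15 (26.7%) did when only the 250 bases before the start were searched. The list and the motif bear the same name, and whether these genes served to define the motif was not checked. The share in the list is therefore not an independent measure. Its called genes are also counted in the shares of genes called higher. The promoters of AT2G04050 and AT2G21640 are shown because their matches lie before the start. They are from RefSeq, build TAIR10.1, 5′ to 3′ in the gene's direction, and capitals mark the matches.
AT2G04050, minus strand of chr2:1339469-1339718: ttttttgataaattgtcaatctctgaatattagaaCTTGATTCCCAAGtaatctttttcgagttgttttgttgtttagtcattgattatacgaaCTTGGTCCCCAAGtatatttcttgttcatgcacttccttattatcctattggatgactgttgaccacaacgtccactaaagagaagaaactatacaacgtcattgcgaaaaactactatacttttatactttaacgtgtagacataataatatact
AT2G21640, plus strand of chr2:9254128-9254377: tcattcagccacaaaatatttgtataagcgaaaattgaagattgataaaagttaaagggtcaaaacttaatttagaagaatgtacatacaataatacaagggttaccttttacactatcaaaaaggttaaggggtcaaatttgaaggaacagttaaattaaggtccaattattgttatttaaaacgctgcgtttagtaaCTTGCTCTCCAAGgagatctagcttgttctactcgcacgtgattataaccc
AT2G04050 held 2 matches, beginning 215 and 156 bases before the start, and AT2G21640 held 1, beginning 51 bases before it.

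Small heat shock protein genes had the highest median of the lists plotted by list. Of 16 such genes, which encode chaperones that hold unfolding proteins, 12 rose and none fell. The median log2 fold change was 4.29, and leaving out each library in turn gave 11 to 13. HSP17.4, a cytosolic member, was 1.06, 0.102, 0.289 and 0.277 CPM in untreated and 29.9, 23.7, 82.00 and 59.4 CPM in treated libraries (log2 fold change 6.60, SE 0.53, edgeR adjusted p = 6.41e-07). AT1G53540, another HSP20-like chaperone, went from 0.462, 0.102, 0.0723 and 0.138 CPM to 10, 9.94, 37.4 and 29.3 CPM (log2 fold change 6.53, edgeR adjusted p = 7.15e-07). HSP17.6II, of class II, went from 0.660, 0, 0.0723 and 0.207 CPM to 17.5, 14.9, 36.8 and 34.5 CPM (log2 fold change 6.53, edgeR adjusted p = 4.56e-07). For these 3 cytosolic genes the noted 3 h libraries were higher than the unnoted ones. HSP23.6-MITO, which resides in mitochondria, rose from 0.990, 1.02, 1.59 and 2.21 CPM to 63.5, 58.8, 96.3 and 69.03 CPM (log2 fold change 5.66, SE 0.24, edgeR adjusted p = 1.31e-09). AT5G51440, also a member of the mitochondrial list, rose from 7.92, 7.79, 9.47 and 15.97 CPM to 340.2, 286, 311 and 256 CPM (log2 fold change 4.92, edgeR adjusted p = 8.53e-09). Small heat shock genes have close copies, so counts of single members may be shared between them.

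The unit of the heat shock element, searched as GAANNTTC or TTCNNGAA on both strands, was present in 9 of 16 small heat shock promoters (56.3%) and in 18.9% of all 21037 promoters. The shares were 22.7% among genes called higher, 27.2% among those higher by at least 4-fold and 19.2% among those called lower. The unit was also in 44.4% of ribosome biogenesis, 40.0% of salicylic acid defence and 30.4% of large chaperone promoters. With only the 250 bases before the start, small heat shock promoters held it at 43.75%. In that window it was in 44.4% of ribosome biogenesis, 40.0% of salicylic acid defence and 8.70% of large chaperone promoters. The promoters of HSP17.4 and AT1G53540 are shown because units overlap in both. They are from RefSeq, build TAIR10.1, 5′ to 3′ in the gene's direction, with the units in capitals.
HSP17.4, minus strand of chr3:16984868-16985117: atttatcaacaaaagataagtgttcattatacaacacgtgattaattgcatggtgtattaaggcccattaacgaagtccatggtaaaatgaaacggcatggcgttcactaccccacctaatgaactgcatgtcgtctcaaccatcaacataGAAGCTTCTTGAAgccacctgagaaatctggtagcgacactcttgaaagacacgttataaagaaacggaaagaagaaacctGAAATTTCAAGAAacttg
AT1G53540, plus strand of chr1:19980049-19980298: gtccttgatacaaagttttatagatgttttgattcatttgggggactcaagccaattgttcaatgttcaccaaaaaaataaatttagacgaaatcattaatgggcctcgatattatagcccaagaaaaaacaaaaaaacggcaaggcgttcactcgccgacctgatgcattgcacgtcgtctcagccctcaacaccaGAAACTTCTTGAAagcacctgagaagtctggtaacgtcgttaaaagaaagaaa
HSP17.4 held 4 units, beginning 99, 94, 18 and 13 bases before the start, and AT1G53540 held 2, beginning 53 and 48 bases before it.

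Of 23 tested genes for large chaperones and their partners, 22 rose and none fell, with a median of 1.23. In the unnoted set alone 15 rose, and in the noted set alone 22 did. HSP90.1, the heat-inducible cytosolic HSP90, was 11.4, 7.38, 18.6 and 16.7 CPM in untreated and 385, 267, 711 and 566 CPM in treated libraries. It rose 35.3-fold (log2 fold change 5.14, SE 0.19, edgeR adjusted p = 2.72e-10). HSP70, an inducible HSP70, rose from 44.9, 49.6, 54.2 and 52.5 CPM to 623, 446, 1472 and 1077 CPM (log2 fold change 4.00, edgeR adjusted p = 3.20e-08), and the abundant HSC70-1 from 2062, 1711, 2025 and 2038 CPM to 2935, 2740.1, 5309 and 3494 CPM (log2 fold change 0.85, edgeR adjusted p = 0.00194). HSC70-1 was not called in the unnoted set alone (log2 fold change 0.60, edgeR adjusted p = 0.139). HSP101, a disaggregase, rose from 14.5, 14.3, 19.1 and 19.4 CPM to 87.9, 77.2, 152 and 137 CPM (log2 fold change 2.71, edgeR adjusted p = 8.08e-10). AT1G71000, a DNAJ-like gene, had at most 0.102 CPM in untreated libraries and 6.73, 4.26, 6.15 and 6.12 CPM after 3 h (log2 fold change 6.48, edgeR adjusted p = 1.80e-07). Every treated library was above every untreated one for these 5 genes, and the noted 3 h libraries were the highest for HSP90.1, HSP70 and HSP101.

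Heat shock factors, the regulators of these genes, moved less uniformly, with 7 of 20 tested genes rising and 2 falling, a count that was 1 without any one of the 4 untreated libraries, 3 h replicate 2 or 3 h replicate 4. HSFA2, the factor that sustains the heat response, was 1.65, 1.23, 1.37 and 2.14 CPM in untreated and 51.98, 45.4, 49.9 and 36.4 CPM in treated libraries (log2 fold change 4.84, SE 0.26, edgeR adjusted p = 9.79e-09). DREB2A, a drought and heat regulator whose protein is degraded by the proteasome, rose from 1.65, 3.28, 1.66 and 1.66 CPM to 7.68, 8.38, 13.3 and 10.02 CPM (log2 fold change 2.26, edgeR adjusted p = 6.55e-05). Of 7 BAG co-chaperone genes 1 rose and 2 fell. BAG6 had 5.15, 2.87, 8.24 and 9.54 CPM and 8.68, 5.40, 22.95 and 28.4 CPM with overlapping groups (log2 fold change 1.24, edgeR adjusted p = 0.0123), and its call was lost without 3 h replicate 4 (log2 fold change 1.00, edgeR adjusted p = 0.0515). The list for unfolded proteins in the endoplasmic reticulum was called at 2 of 21 genes, both higher, with a median of 0.11. They were BZIP60, the bZIP regulator of that response, which went from 35.8, 36.99, 24.9 and 25.5 CPM to 123, 121, 100.5 and 64.5 CPM (log2 fold change 1.73, edgeR adjusted p = 6.56e-07), and ATERDJ3A, a DNAJ partner of the chaperone BiP, which went from 4.42, 4.10, 2.89 and 3.60 CPM to 15.4, 10.5, 10.8 and 13.9 CPM (log2 fold change 1.77, edgeR adjusted p = 9.40e-06).

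**Figure D3:**
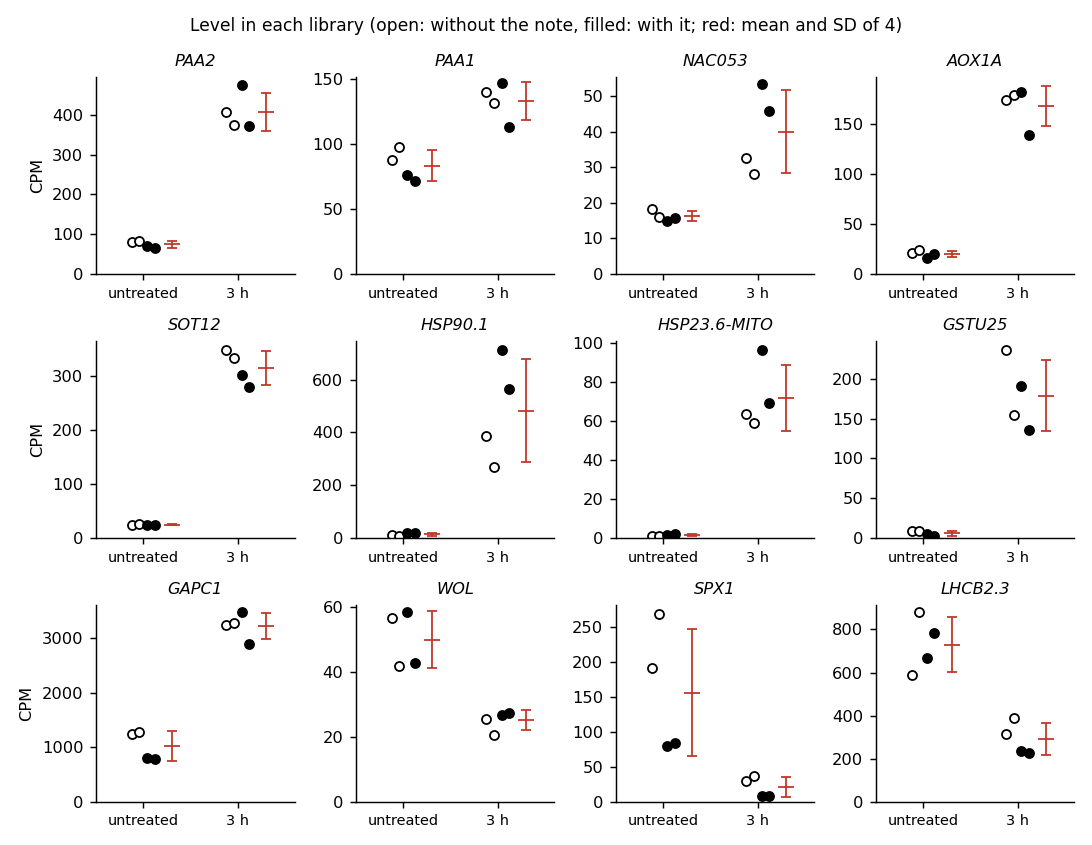
Levels in CPM are plotted by library for 12 genes, with open points for libraries without the technical replicate note, filled points for libraries with it, and a red mark for the mean and SD of the 4 libraries of a group. The groups are apart in all 12 panels, upward for AOX1A (8.39-fold) and HSP90.1 (35.3-fold) and downward for SPX1 (7.99-fold), while PAA1 rose by far less than its copy PAA2.

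Autophagy, the other main route of protein and organelle breakdown, was called at 7 of 33 tested genes, 6 higher and 1 lower, with a median of 0.12. NBR1, the receptor that carries ubiquitinated aggregates to autophagosomes, was 208, 188, 198 and 169 CPM in untreated and 596, 568, 942 and 840.3 CPM in treated libraries (log2 fold change 1.94, SE 0.17, edgeR adjusted p = 1.78e-06). The ATG8 genes, whose small proteins coat the autophagosome, did not move alike. ATG8B rose from 13.8, 14.3, 15.3 and 14.3 CPM to 35.7, 46.3, 34.8 and 38.5 CPM (log2 fold change 1.42, edgeR adjusted p = 7.21e-06), and ATG8E from 38.3, 41.4, 43.97 and 38.7 CPM to 88.8, 86.5, 60.7 and 78.2 CPM (log2 fold change 0.96, edgeR adjusted p = 2.47e-04). ATG8F fell from 74.2, 95.1, 85.7 and 74.5 CPM to 43.9, 54.4, 50.4 and 43.9 CPM (log2 fold change -0.78, edgeR adjusted p = 1.57e-04). None of these 4 genes had overlapping groups.

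On a chosen list of detoxification genes, many for enzymes that modify foreign or reactive compounds, 17 of 24 tested members rose and none fell, with a median of 1.02. Tau glutathione transferases rose at 12 of 25 genes and fell at 2. The wider families moved both ways. Cytochrome P450 genes rose at 20 of 183 and fell at 27 (median -0.10), and UDP-glycosyltransferases rose at 22 of 117 and fell at 15 (median 0.01). CYP89A3, a cytochrome P450 on chr5:24655098-24656638, was 0.198, 0.102, 0.0723 and 0 CPM in untreated and 18.7, 9.80, 20.1 and 17.2 CPM in treated libraries (log2 fold change 7.33, SE 0.44, edgeR adjusted p = 2.39e-08). CYP81D8, another cytochrome P450, rose from 1.52, 4.10, 1.45 and 2.84 CPM to 71.2, 79.1, 66.7 and 44.1 CPM (log2 fold change 4.75, edgeR adjusted p = 3.20e-08). GSTU22, a tau glutathione transferase, rose from 1.12, 1.74, 1.45 and 0.553 CPM to 104, 68.3, 126 and 91.02 CPM (log2 fold change 6.39, edgeR adjusted p = 2.46e-07). GSTU25 rose from 8.18, 8.30, 4.41 and 1.94 CPM to 236, 155, 191 and 136 CPM (log2 fold change 4.99, edgeR adjusted p = 2.19e-06), and its untreated values were lower in the noted set. GSTF8, of the phi class, rose from 295, 258, 206 and 180.02 CPM to 809.7, 859, 1260.0 and 822 CPM (log2 fold change 2.01, edgeR adjusted p = 1.22e-06). UGT73B4, a glycosyltransferase, rose from 1.72, 0.717, 2.68 and 0.830 CPM to 24.98, 14.2, 38.4 and 34.4 CPM (log2 fold change 4.18, edgeR adjusted p = 3.32e-07), and DTX1, an efflux carrier, from 18.2, 16.1, 10.8 and 15.7 CPM to 72.4, 81.9, 85.00 and 78.6 CPM (log2 fold change 2.39, edgeR adjusted p = 3.07e-07). The element TGACG, bound by TGA factors, was present on either strand of 54.2% of detoxification promoters and 48.0% of tau glutathione transferase promoters, against 23.7% of all promoters. It was as frequent in lists that did not rise, with 61.5% of circadian clock and 53.2% of histone promoters, and was in 26.3% of promoters of genes called higher and 24.2% of those called lower.

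Several of the largest rises lay outside these lists. PMZ, an AN1 zinc finger gene on chr3:10520443-10521796, was 0.924, 1.13, 1.01 and 0.622 CPM in untreated and 122, 96.3, 117 and 90.7 CPM in treated libraries (log2 fold change 6.86, SE 0.24, edgeR adjusted p = 2.25e-10). ILL5, related to hydrolases that free auxin from its conjugates, had 1 count over all 4 untreated libraries and 6.20, 4.12, 3.49 and 6.31 CPM after 3 h. AT5G55270, annotated as a hypothetical protein, rose from 0.13, 0.307, 0.0723 and 0.415 CPM to 19.5, 18.6, 20.96 and 15.6 CPM (log2 fold change 6.32, edgeR adjusted p = 1.53e-09). CRK39, a cysteine-rich receptor-like kinase, had no counts in the 4 untreated libraries and 6.97, 4.40, 3.83 and 3.25 CPM after 3 h. Against the floor of 3 counts over those libraries its level was at least 81.8-fold higher. No untreated library reached any treated library for these 4 genes.

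The next 3 genes were among those that gained most CPM. GAPC1, cytosolic glyceraldehyde-3-phosphate dehydrogenase, was 1236, 1282, 797 and 777 CPM in untreated and 3239.5, 3274, 3474 and 2891 CPM in treated libraries (log2 fold change 1.68, SE 0.16, edgeR adjusted p = 2.89e-06). FBA8, an aldolase, rose from 938, 802, 567 and 508 CPM to 1571, 1505, 1942 and 1349 CPM (log2 fold change 1.20, edgeR adjusted p = 3.91e-04), and LOS2, enolase, from 1643, 1747, 1012 and 1019 CPM to 2086, 2154, 2354 and 2039 CPM (log2 fold change 0.72, edgeR adjusted p = 0.00557). All 3 had lower untreated levels in the noted set, and LOS2 was not called in the unnoted set alone (log2 fold change 0.34, edgeR adjusted p = 0.392). Of 17 hypoxia genes 4 rose and none fell, with a median of 1.07 that was 1.41 in the unnoted and 0.42 in the noted set. The count fell to 2 without any one of the 4 untreated libraries or without 3 h replicate 2. ERF71, an ethylene response factor induced by low oxygen, was 3.04, 0.717, 4.56 and 3.53 CPM and 16.01, 23.00, 18.5 and 15.9 CPM (log2 fold change 2.75, edgeR adjusted p = 0.00363), and AT4G33070, a pyruvate decarboxylase, was 40.5, 8.61, 89.2 and 66.9 CPM and 152, 353, 207 and 441 CPM (log2 fold change 2.73, edgeR adjusted p = 0.012). SUS1, sucrose synthase, was 51.8, 32.2, 52.7 and 45.2 CPM and 54.3, 161, 53.2 and 110.1 CPM (log2 fold change 1.07, edgeR adjusted p = 0.0444), and its call was lost without any of 6 libraries, with adjusted p from 0.0529 to 0.185. HB1, a hemoglobin, was 138, 43.96, 136 and 114 CPM and 205, 416, 151 and 240.1 CPM and did not pass the test although its groups did not overlap (log2 fold change 1.33, edgeR adjusted p = 0.103). Untreated replicate 2 had the lowest untreated value for all 4 of these genes, and 3 h replicate 2 had the highest treated value for 3 of them.

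Most genes on a list of type-A cytokinin response regulators and cytokinin targets fell. Of 16 tested genes 11 fell and none rose, with a median of -0.82, and 7 fell without 3 h replicate 3 or without 3 h replicate 4. The list does not stand for cytokinin signalling as a whole. WOL, a cytokinin receptor on chr2:362983-369707, was 56.6, 41.8, 58.2 and 42.7 CPM in untreated and 25.6, 20.6, 26.8 and 27.3 CPM in treated libraries (log2 fold change -0.99, SE 0.13, edgeR adjusted p = 1.09e-04). The type-A response regulators are rapid targets that dampen the pathway, and RR5 fell from 34.98, 23.2, 27.5 and 24.97 CPM to 10.2, 10.8, 4.99 and 10.2 CPM (log2 fold change -1.60, SE 0.18, edgeR adjusted p = 2.64e-05). RR3 fell from 31.1, 22.4, 42.1 and 37.00 CPM to 13.998, 10.4, 13.3 and 17.7 CPM (log2 fold change -1.23, edgeR adjusted p = 2.07e-05), ARR7 from 13.9, 16.4, 14.6 and 17.6 CPM to 8.45, 6.67, 5.99 and 5.29 CPM (log2 fold change -1.25, edgeR adjusted p = 3.52e-04) and ARR9 from 46.9, 41.5, 51.8 and 47.6 CPM to 31.2, 27.1, 18.3 and 27.9 CPM (log2 fold change -0.83, edgeR adjusted p = 0.0013). For all 5 genes every treated library lay below every untreated one.

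Early auxin genes also fell: of 23 tested AUX/IAA and GH3 genes none rose and 10 fell, with a median of -0.37 and 8 to 10 falling when each library was left out in turn. IAA29 fell from 4.95, 5.64, 8.89 and 8.92 CPM to 2.48, 1.56, 3.16 and 1.58 CPM (log2 fold change -1.66, edgeR adjusted p = 3.56e-04), IAA1 from 9.31, 9.94, 10.05 and 12.3 CPM to 4.96, 3.12, 3.49 and 4.82 CPM (log2 fold change -1.29, edgeR adjusted p = 0.00129) and SHY2 from 46.2, 51.3, 57.1 and 62.4 CPM to 32.8, 28.4, 18.96 and 29.4 CPM (log2 fold change -0.98, edgeR adjusted p = 0.00164). These encode repressors of auxin responses that are themselves induced by auxin. Of 62 tested SAUR genes, small auxin-induced genes tied to cell expansion, 1 rose and 24 fell, with a median of -0.68. That count was 14 without 3 h replicate 4 and 7 in the unnoted set alone, where the median was -0.27 against -1.06 in the noted set. Of 24 expansin genes, whose proteins loosen cell walls, 1 rose and 8 fell. EXPA8 fell from 60.6, 63.9, 104 and 101 CPM to 35.1, 40.9, 35.6 and 49.4 CPM (log2 fold change -0.98, edgeR adjusted p = 0.00708).

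Other hormone lists moved at fewer genes. For brassinosteroid none of 15 rose and 4 fell, among them PRE1, a growth-promoting bHLH gene, from 1.25, 2.56, 2.82 and 4.56 CPM to 0.650, 0.994, 0.333 and 0.649 CPM (log2 fold change -1.995, edgeR adjusted p = 0.00175), and BR6OX1, which makes active brassinosteroid, from 6.60, 5.12, 6.58 and 6.16 CPM to 3.19, 3.41, 1.66 and 4.36 CPM (log2 fold change -0.92, edgeR adjusted p = 0.012). For gibberellin 2 of 17 rose and 1 fell, with none falling without untreated replicate 4, 3 h replicate 1 or 3 h replicate 3. GID1B, a gibberellin receptor, rose from 20.7, 17.1, 13.2 and 11.5 CPM to 26.6, 32.9, 27.4 and 25.3 CPM (log2 fold change 0.87, edgeR adjusted p = 5.21e-04), and SCL3, a regulator of gibberellin responses, from 26.6, 21.1, 23.4 and 19.8 CPM to 30.7, 36.1, 35.1 and 32.8 CPM (log2 fold change 0.56, edgeR adjusted p = 0.00414). For ethylene 2 of 23 rose and 3 fell. The genes of ACC synthase, which makes the ethylene precursor, moved in opposite directions. ACS2 rose from 1.45, 1.33, 1.45 and 0.553 CPM to 5.08, 5.68, 4.82 and 4.36 CPM (log2 fold change 2.06, edgeR adjusted p = 0.00355) and ACS7 from 7.33, 8.30, 3.11 and 3.25 CPM to 19.96, 21.7, 11.3 and 11.2 CPM (log2 fold change 1.58, edgeR adjusted p = 5.13e-04), while ACS4 fell from 2.97, 3.79, 2.24 and 2.97 CPM to 1.06, 1.14, 0.998 and 0.557 CPM (log2 fold change -1.69, edgeR adjusted p = 0.00317). EIL1, a transcription factor of the ethylene pathway whose protein is degraded by the proteasome, fell from 87.98, 94.4, 106 and 102 CPM to 58.2, 52.7, 67.9 and 69.7 CPM (log2 fold change -0.66, edgeR adjusted p = 1.21e-04).

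Genes of the phosphate starvation response fell strongly: of 23 genes 15 fell and 1 rose, with a median of -1.03 and 14 to 16 falling when each library was left out in turn. SPX1, a phosphate sensor protein gene on chr5:6802282-6803655, was 191, 269, 80.6 and 84.03 CPM in untreated and 29.7, 36.8, 8.98 and 8.999 CPM in treated libraries. It was 7.99-fold lower (log2 fold change -3.00, SE 0.26, edgeR adjusted p = 1.54e-06). PAP17, a secreted acid phosphatase, fell from 225, 303, 81.5 and 83.5 CPM to 45.2, 80.2, 19.96 and 19.5 CPM (log2 fold change -2.07, edgeR adjusted p = 4.44e-05). MGD2, which makes galactolipids that replace phospholipids, fell from 78.3, 104, 15.3 and 15.6 CPM to 8.80, 14.1, 3.16 and 4.17 CPM (log2 fold change -2.61, edgeR adjusted p = 1.20e-05). MGDC, another galactolipid synthase, went from 113, 169, 7.67 and 6.36 CPM to 5.02, 8.23, 0.665 and 1.02 CPM (log2 fold change -4.18, edgeR adjusted p = 5.29e-05), and PEPC1, a phosphatase, from 71.8, 133, 3.90 and 4.15 CPM to 5.43, 8.38, 0.665 and 1.11 CPM (log2 fold change -3.56, edgeR adjusted p = 8.71e-05). For all 5 genes the unnoted libraries were higher than the noted ones in both groups, and for MGDC and PEPC1 the groups overlapped across sets while they were apart within each set. The treated seedlings had been moved to fresh medium and the untreated had not, so the part of the medium in these falls cannot be told apart from that of MG132.

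Other nutrient lists were smaller or rested on single libraries. Of 22 tested iron genes 6 rose and 1 fell, and 1 rose without 3 h replicate 1 or without untreated replicate 4. BTS, an iron-sensing ubiquitin ligase, rose from 57.1, 56.98, 101 and 74.3 CPM to 139, 139, 225 and 262 CPM (log2 fold change 1.37, edgeR adjusted p = 0.00869). IRT1, the root iron importer, went from 14.98, 11.4, 13.1 and 9.27 CPM to 51.9, 41.3, 39.6 and 62.6 CPM (log2 fold change 1.98, edgeR adjusted p = 0.0185), a call lost without any of 3 libraries (adjusted p from 0.0631 to 0.0681). The call of bHLH39, a regulator of iron uptake with 1.52, 2.56, 9.11 and 1.52 CPM and 18.96, 15.8, 33.8 and 35.9 CPM (log2 fold change 3.03, edgeR adjusted p = 0.0363), was lost when any of the 8 libraries was left out. AT3G13610, the oxygenase F6'H1 of coumarin synthesis, fell from 30.1, 24.7, 21.9 and 12.4 CPM to 8.92, 12.1, 4.16 and 8.91 CPM (log2 fold change -1.37, edgeR adjusted p = 0.00624). Of 15 sulfur genes 2 rose and 6 fell. Without untreated replicate 3, 2 fell, and none rose without untreated replicate 3, untreated replicate 4 or 3 h replicate 4. APR2, a sulfate-reducing enzyme, fell from 231, 289, 219.6 and 218 CPM to 159, 190.1, 166 and 137 CPM (log2 fold change -0.56, edgeR adjusted p = 0.0038). Of 13 tested sugar starvation genes none rose and 6 fell, with 2 falling without 3 h replicate 1 or 3 h replicate 2. Among them TPS8, a trehalose phosphate synthase, fell from 46.9, 52.1, 60.7 and 51.8 CPM to 12.8, 16.3, 25.8 and 34.1 CPM (log2 fold change -1.32, edgeR adjusted p = 5.88e-05), and BZO2H3, a bZIP factor, from 18.4, 25.8, 27.3 and 36.3 CPM to 9.10, 8.80, 11.98 and 13.5 CPM (log2 fold change -1.31, edgeR adjusted p = 1.67e-05). Of 20 tested nitrate genes 3 rose and 2 fell, with 4 falling without untreated replicate 3 or untreated replicate 4. WR3, a nitrate transport component, rose from 11.4, 12.7, 4.92 and 4.43 CPM to 20.3, 26.1, 49.1 and 31.8 CPM (log2 fold change 1.93, edgeR adjusted p = 0.00135), and AT1G25550, a MYB-like factor, fell from 91.1, 121, 66.96 and 68.9 CPM to 52.6, 48.6, 44.9 and 43.6 CPM (log2 fold change -0.84, edgeR adjusted p = 3.40e-04).

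**Figure D4:**
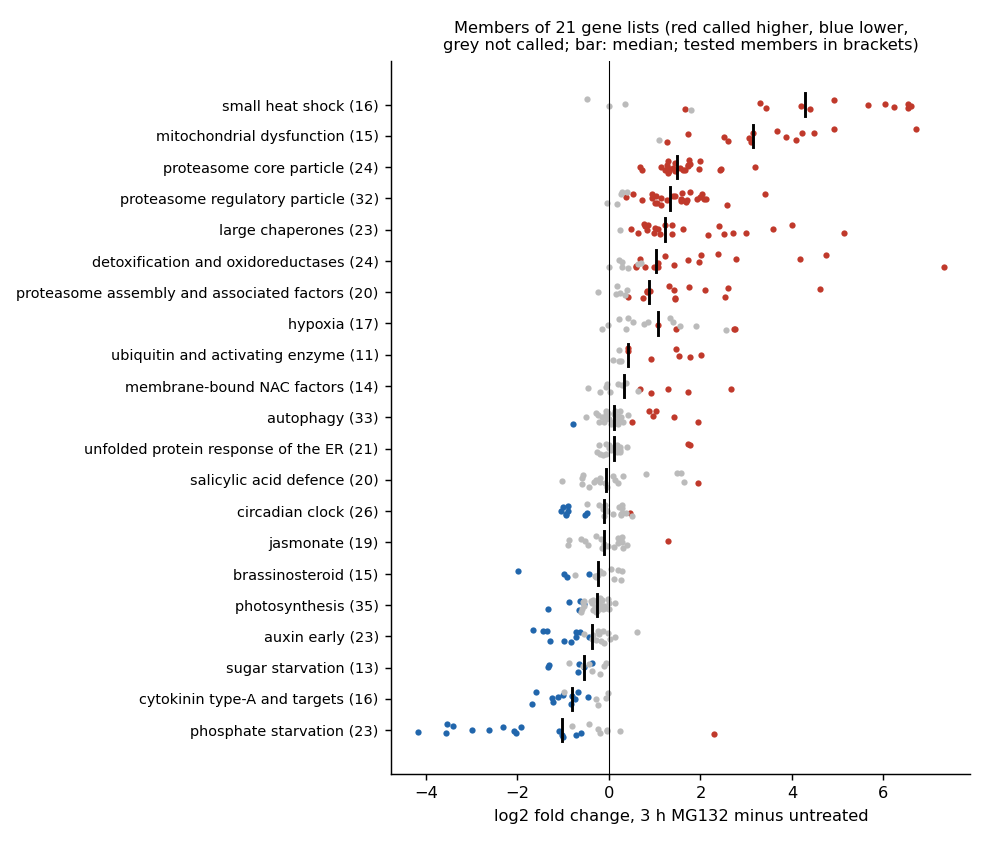
Log2 fold changes of the tested members of 21 gene lists are plotted as points, 1 line per list, with genes that rose or fell coloured and uncalled genes in grey. All 24 core particle genes lie above 0, small heat shock genes have the highest median of the lists (4.29), and phosphate starvation genes lie mostly below 0 (median -1.03).

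Of 26 clock genes 1 rose and 8 fell, with 6 to 9 falling when each library was left out in turn and none rising without untreated replicate 3 or untreated replicate 4. CCA1 and LHY, the MYB-like factors of the morning loop, fell together. CCA1 was 55.97, 67.4, 89.02 and 86.3 CPM in untreated and 38.7, 41.03, 33.6 and 31.5 CPM in treated libraries (log2 fold change -1.04, edgeR adjusted p = 3.98e-04), and LHY was 124, 151, 152 and 138 CPM and 93.5, 87.7, 53.7 and 54.5 CPM (log2 fold change -1.01, edgeR adjusted p = 7.46e-04). TCP11, a TCP factor, fell from 53.5, 66.3, 54.3 and 64.9 CPM to 30.005, 35.1, 29.8 and 30.3 CPM (log2 fold change -0.93, edgeR adjusted p = 6.02e-05). Treated seedlings were harvested later by 3 h, and the part of time of day in these falls cannot be told apart from the treatment. Of 23 light signalling genes 1 rose and 5 fell. The rise was lost without any one library other than untreated replicate 2, and 3 fell without untreated replicate 2, untreated replicate 4 or 3 h replicate 2. SPA4, a partner of the COP1 ubiquitin ligase, fell from 19.5, 19.5, 18.2 and 19.2 CPM to 13.9, 10.9, 9.65 and 14.3 CPM (log2 fold change -0.63, edgeR adjusted p = 0.004).

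Of 35 photosynthesis genes none rose and 5 fell, with a median of -0.25, and 3 fell without untreated replicate 2. LHCB2.3, a light-harvesting protein of photosystem II, was 590.1, 881, 665 and 783 CPM in untreated and 316, 388, 236 and 227 CPM in treated libraries (log2 fold change -1.33, SE 0.18, edgeR adjusted p = 1.44e-04). RCA, rubisco activase, was 4475, 6444, 4759.9 and 5045 CPM and 3539, 3942, 3325 and 3387 CPM (log2 fold change -0.55, edgeR adjusted p = 0.0148), and its call was lost without untreated replicate 2 (edgeR adjusted p = 0.0509). GUN5, a subunit of the chelatase of chlorophyll synthesis, fell from 1496, 1997, 1662 and 1792 CPM to 840.1, 762, 1091 and 1087 CPM (log2 fold change -0.89, edgeR adjusted p = 9.86e-04). PYK10, the main glucosidase of endoplasmic reticulum bodies in roots, was 8354, 8514, 7763 and 6456 CPM and 3965, 4418, 3637 and 4608 CPM (log2 fold change -0.91, edgeR adjusted p = 0.0229), and its call was lost without any of 4 libraries (adjusted p from 0.0539 to 0.0688). MYB111, a regulator of flavonol synthesis, went from 21.4, 26.1, 9.26 and 9.68 CPM to 11.8, 13.5, 5.32 and 5.47 CPM (log2 fold change -0.86, edgeR adjusted p = 0.00232). It was 1 of 3 of 25 tested flavonoid genes that fell, a count that was 5 without untreated replicate 4, and its groups overlapped across library sets but not within them.

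Lists of early stress and defence genes moved unevenly. Of 18 tested early stress transcription factors 2 rose and 4 fell, and none rose without untreated replicate 3, untreated replicate 4 or 3 h replicate 3. CBF2, a cold-response regulator, fell from 2.84, 3.89, 2.46 and 1.45 CPM to 0.177, 0.284, 0.832 and 0.371 CPM (log2 fold change -2.86, edgeR adjusted p = 0.0094), and ERF104, an ethylene response factor, from 36.8, 41.9, 20.7 and 21.2 CPM to 12.2, 11.6, 13.8 and 11.8 CPM (log2 fold change -1.28, edgeR adjusted p = 0.0114). RHL41, a zinc finger gene, had 15.8, 19.9, 2.60 and 4.15 CPM and 29.1, 28.4, 25.3 and 16.1 CPM with overlapping groups (log2 fold change 1.45, edgeR adjusted p = 0.0291), and its call was lost without untreated replicate 3, untreated replicate 4 or 3 h replicate 3 (adjusted p from 0.0787 to 0.104). Of 20 tested abscisic acid and cold genes 5 rose and none fell, with 2 rising without untreated replicate 3. COR15A, a chloroplast cold protein, rose from 1.39, 1.74, 0.651 and 0.968 CPM to 5.37, 2.70, 14.8 and 7.70 CPM (log2 fold change 2.57, edgeR adjusted p = 8.49e-04) and KIN2 from 58.4, 55.8, 43.2 and 34.7 CPM to 101, 129, 347 and 178 CPM (log2 fold change 1.84, edgeR adjusted p = 0.00188). LTI78 went from 23.4, 24.9, 26.7 and 18.9 CPM to 36.6, 32.5, 489.5 and 178 CPM (log2 fold change 2.50, edgeR adjusted p = 0.00963), and without untreated replicate 3 its adjusted p was 0.0520. For these 3 genes both noted 3 h libraries were above both unnoted ones. Of 20 salicylic acid genes 1 rose, PAD3 of camalexin synthesis, from 2.90, 2.77, 2.53 and 2.07 CPM to 15.00, 10.2, 9.31 and 6.12 CPM (log2 fold change 1.95, edgeR adjusted p = 4.84e-04). WRKY70, a regulator of salicylic acid defence, was 2.84, 3.59, 2.17 and 2.14 CPM and 1.95, 0.710, 1.16 and 1.21 CPM and did not pass the test (log2 fold change -1.02, edgeR adjusted p = 0.108). Of 19 tested jasmonate genes 1 rose and none fell, and none rose without any one of 5 libraries, untreated replicates 1, 3 and 4 and 3 h replicates 1 and 2.

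The next 5 genes were among those with the largest falls. AT5G47980, an acyltransferase gene, was 43.6, 22.95, 15.04 and 4.91 CPM in untreated and 2.01, 2.98, 1.33 and 2.13 CPM in treated libraries (log2 fold change -3.22, SE 0.47, edgeR adjusted p = 2.97e-04). AT2G25150, of the same acyltransferase family, fell from 27.8, 10.9, 14.1 and 6.64 CPM to 2.42, 2.13, 0.998 and 1.39 CPM (log2 fold change -3.04, edgeR adjusted p = 2.02e-04), and AT5G38020, a methyltransferase gene, from 51.2, 59.1, 20.03 and 17.01 CPM to 5.67, 8.38, 1.996 and 3.99 CPM (log2 fold change -2.80, edgeR adjusted p = 5.08e-04). AT5G46890, a lipid transfer protein gene, fell from 36.8, 20.4, 24.5 and 6.71 CPM to 2.48, 6.39, 0.832 and 2.50 CPM (log2 fold change -2.88, edgeR adjusted p = 0.0048), and CER4, a reductase that makes primary alcohols of wax and suberin, from 11.02, 4.82, 6.44 and 2.14 CPM to 1.00, 1.14, 0.333 and 0.371 CPM (log2 fold change -3.08, edgeR adjusted p = 1.39e-04). For these 5 genes the untreated libraries spread several-fold among themselves, yet all lay above the treated ones. Of 14 root and root hair genes 1 fell, RHD6, which starts root hairs, from 4.03, 3.07, 5.57 and 3.11 CPM to 0.827, 1.28, 0 and 0.649 CPM (log2 fold change -2.41, edgeR adjusted p = 0.00544). Of 10 stomatal lineage genes 2 fell and none rose, with a median of -0.58. Without untreated replicate 2, 3 or 4 or 3 h replicate 3 or 4 none fell, without 3 h replicate 1 there was 1, and without untreated replicate 1 there were 4. The summed share of the stomatal list was 0.0070% to 0.0089% of all counts in untreated and 0.0047% to 0.0061% in treated libraries, so the groups did not overlap. Of 5 tested seed storage genes 1 fell, and none without untreated replicate 1 or 3 or 3 h replicate 1 or 4. Of 3 phloem genes 1 fell, SUC2, the sucrose loader, from 102, 113, 97.04 and 111 CPM to 51.3, 54.8, 88.8 and 84.2 CPM (log2 fold change -0.62, edgeR adjusted p = 0.0115). The summed share of counts was 0.0228% ± 0.0007 and 0.0175% ± 0.0034 for the phloem list, and 0.0194% ± 0.0063 and 0.0194% ± 0.0020 for the root list, in untreated and treated libraries (SD, n = 4). Their part in the other results was not tested.

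Of 18 ribosome biogenesis genes 6 rose and none fell, with 3 rising without 3 h replicate 1 or untreated replicate 3, and AT5G14520, a pescadillo-like gene, rose from 70.03, 68.8, 64.6 and 72.8 CPM to 92.1, 83.1, 98.8 and 103 CPM (log2 fold change 0.44, edgeR adjusted p = 0.00608). Of 25 cell cycle genes none rose and 2 fell, and none fell without untreated replicate 3 or untreated replicate 4. HIS4, a histone H4 gene, went from 37.4, 48.2, 40.8 and 51.4 CPM to 34.4, 35.2, 29.3 and 22.6 CPM (log2 fold change -0.58, edgeR adjusted p = 0.0253), a call lost without any of 5 libraries (adjusted p from 0.0524 to 0.0915).

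The library sets gave overlapping but unequal results. Tested alone, the unnoted libraries called 2162 of 21162 genes (10.2%) and the noted libraries 3671 of 21152 (17.4%). Of 1027 genes higher in the unnoted set, 975 (94.9%) moved the same way in the noted set and 694 (67.6%) were called there. Those 694 were 37.9% of the 1829 genes higher in the noted set. Of 1135 genes lower in the unnoted set, 1023 (90.13%) moved the same way and 596 (52.5%) were called, which is 32.4% of the 1842 genes lower in the noted set. In addition, 9 genes called lower in the unnoted set were called higher in the noted set. A test of the difference itself, the interaction of treatment and library set, called 22 of 19678 genes (0.112%). Of these, 20 had the higher value in the noted set. Before adjustment, 2502 of the 19678 genes had an edgeR interaction p below 0.05. With 2 libraries per group and set, genes with smaller differences may go uncalled. STY46, a protein kinase gene, had 89.96, 91.9, 119 and 101 CPM in untreated and 28.2, 23.9, 103 and 95.6 CPM in treated libraries, so it was low after 3 h in the unnoted set and near the untreated level in the noted set. AT3G15450, annotated as an aluminium-induced protein, was also low after 3 h in the unnoted set only, with 82.7, 89.8, 139 and 119 CPM and 12.2, 20.6, 121 and 108 CPM. CYP702A5, a cytochrome P450, did the reverse, with 13.5, 12.3, 20.2 and 19.2 CPM and 14.4, 13.9, 2.50 and 1.86 CPM. PELPK1, a hydroxyproline-rich protein gene, had 30.95, 31.7, 7.59 and 7.81 CPM and 17.96, 16.9, 22.6 and 15.1 CPM, lower after treatment in the unnoted set and higher in the noted set. PAL4, of phenylpropanoid synthesis, had 32.5, 23.9, 20.2 and 18.5 CPM and 11.99, 9.09, 34.6 and 29.6 CPM. The origin of the differences between sets was not tested.

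**Figure D5:**
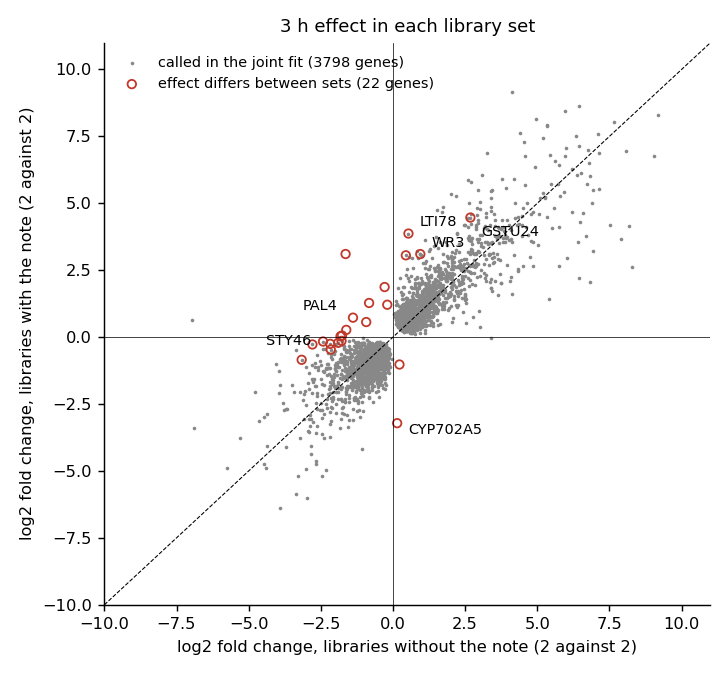
The log2 fold change of 3 h MG132 against untreated is plotted within the unnoted set (horizontal axis) and within the noted set (vertical axis) for called genes with a value in both sets, with the 22 genes of the interaction test marked. Most points lie along the diagonal in the upper right and lower left, and 20 of the 22 marked genes lie above it.

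The level at 24 h of MG132 was compared with that at 3 h for the genes named above, over 4 libraries at each time. This comparison shares the 3 h libraries with the one against untreated seedlings, and the values of each are given side by side. Over all 21205 tested genes, 1753 (8.27%) were higher at 24 h than at 3 h and 1645 (7.76%) were lower. The proteasome genes PBB2 and RPT5B were higher still, PBB2 with a mean of 191 ± 16.3 CPM after 3 h against 273 ± 23.7 CPM after 24 h (SD over 4 libraries each, log2 difference 0.51, edgeR adjusted p = 0.0069), and RPT5B with 139.5 ± 37.04 and 210.2 ± 17.7 CPM (log2 difference 0.61, edgeR adjusted p = 0.01). NBR1 went from 736 ± 184 to 1492 ± 195 CPM (log2 difference 1.03, edgeR adjusted p = 9.72e-04) and CYP89A3 from 16.5 ± 4.60 to 60.03 ± 15.1 CPM (log2 difference 1.86, edgeR adjusted p = 1.03e-04). NAC053 had 39.98 ± 11.7 and 28.7 ± 6.67 CPM and did not pass the test (log2 difference -0.47, edgeR adjusted p = 0.111).

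Other early rises were lower at 24 h than at 3 h. HSP23.6-MITO went from 71.9 ± 16.8 to 1.26 ± 0.729 CPM (log2 difference -5.83, edgeR adjusted p = 1.49e-09), and UGT74E2 from 99.5 ± 33.8 to 1.64 ± 0.984 CPM (log2 difference -5.93, edgeR adjusted p = 6.06e-10). HSFA2 went from 45.9 ± 6.93 to 2.97 ± 1.08 CPM (log2 difference -3.95, edgeR adjusted p = 1.29e-07), SOT12 from 316 ± 31.3 to 36.5 ± 4.21 CPM (log2 difference -3.11, edgeR adjusted p = 6.97e-10) and UBQ10 from 5533 ± 1651 to 1867 ± 105 CPM (log2 difference -1.54, edgeR adjusted p = 2.67e-05). AOX1A was lower by less, at 78.2 ± 8.29 CPM against 169 ± 20.01 CPM (log2 difference -1.11, edgeR adjusted p = 1.80e-05). Among the genes that had fallen, SPX1 was higher at 24 h, at 142 ± 105 CPM against 21.1 ± 14.3 CPM (log2 difference 2.68, edgeR adjusted p = 1.07e-05), and so was RR5, at 20.8 ± 1.28 CPM against 9.05 ± 2.72 CPM (log2 difference 1.19, edgeR adjusted p = 6.12e-04). LHCB2.3 was lower again, at 196 ± 31.3 CPM against 292 ± 75.6 CPM (log2 difference -0.56, edgeR adjusted p = 0.0493). WRKY70, not called at 3 h, had 52.97 ± 27.8 CPM at 24 h against 1.26 ± 0.513 CPM at 3 h (log2 difference 5.26, edgeR adjusted p = 5.36e-07).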

How the data were processed

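Whole seedlings were frozen and total RNA was isolated with Trizol, and libraries were made with the TruSeq RNA kit version 2, per the labels' protocols. Strand is not marked by this kit, and overlapping or antisense genes cannot be told apart. The authors deposited 1 table of read counts per gene for each library. Per the submitters' processing notes, Trimmomatic, TopHat, Bowtie2, HTSeq and edgeR were used with build TAIR10. Versions and settings were not given in the sources used here. How reads matching several copies were counted is likewise not given, so polyubiquitins, small heat shock genes, light-harvesting genes and proteasome copies are uncertain.

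From the counts as deposited, edgeR 4.0.16 (R 4.3.3, limma 3.58.1) filtered genes with filterByExpr, scaled libraries by the trimmed mean of M values and fitted group and library set over all 16 libraries, which share one estimate of the spread. The quasi-likelihood F-test was adjusted by Benjamini-Hochberg over 21205 genes, with a threshold of 0.05. SE was taken as the size of the log2 fold change over the root of the F statistic, which is too small near 0. Within-set fits and the interaction fit used the 8 libraries. The same steps, run on simulated counts for 21006 genes of this comparison, called 76% of the 2-fold and 100% of the 4-fold changes, with 2 unchanged genes called. Changes were planted only in genes above a minimum mean count, and the simulated 8 libraries held no difference between library sets. These shares therefore do not describe low genes or the spread between the sets. Interval estimates cover counting error and the spread between these samples only. Python 3.11.15, pandas 2.3.3, numpy 2.4.6, scipy 1.17.1 and matplotlib 3.10.9 did the rest.

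Genes were named by a rule: the 12 genes with the strongest rise and the 12 with the strongest fall, if called, at 5 CPM or more in the higher group and without overlap, the 8 genes that gained and the 8 that lost most CPM, the 5 smallest p in each list, NAC053 and NAC078, the 6 smallest interaction p, and the 6 highest of the genes at 0 in all untreated libraries. The text gives part of these, and PA200, UBQ5, AT2G04050, RPT6A, RPN12b and the second members of gene pairs were added after their values were seen. The pair ratios were also added after the data were seen. Members and lists were chosen with earlier results of these data known. Same-numbered libraries shared deviations from the group means (r = 0.23 to 0.50 over genes), but not from the means of group and set (r = -0.07 to 0.03), so the numbers mark the library set, which the model holds. Gene names and promoters came from RefSeq, build TAIR10.1, which matched 32835 of 33602 identifiers. Alternatives were another scaling, no filter, no set term, 8 libraries, a replicate block, each library left out, each set alone, DESeq2 1.42.0 and a 2-fold threshold.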

Additional observations from a re-analysis of the deposited data

Results flagged for a closer look

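In 278 groups of 4 values, for 139 genes, 11 groups held 1 library far from the other 3 (Dixon's test at its 95% critical value). Chance gives about 1 in 20 such groups, which is more than were seen. Among 3 h libraries, AT1G67250 was low in replicate 4 at 78.0 CPM against 118.8 CPM in the next library, GSTF8 was high in replicate 3 at 1260 CPM against 859 CPM, RR5 was low in replicate 3 at 4.99 CPM against 10.2 CPM, and TCP11 was high in replicate 2 at 35.1 CPM against 30.3 CPM. Among untreated libraries, NAC13 was high in replicate 4 at 11.2 CPM against 8.61 CPM, AT1G53540 in replicate 1 at 0.462 CPM against 0.138 CPM, DREB2A in replicate 2 at 3.28 CPM against 1.66 CPM, ILL5 in replicate 3 at 0.0723 CPM against 0 CPM, and bHLH39 in replicate 3 at 9.11 CPM against 2.56 CPM. HSC70-1 was low in untreated replicate 2 at 1711 CPM against 2025 CPM, and ACS2 in untreated replicate 4 at 0.553 CPM against 1.33 CPM.

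For 9 named genes the effect of MG132 differed between the library sets by the edgeR interaction test. The log2 fold change of the noted set minus that of the unnoted set was 1.81 for GSTU24, a tau glutathione transferase with 10.7, 12.5, 5.78 and 4.50 CPM in untreated and 82.3, 64.03, 125 and 102 CPM in treated libraries. It was 1.94 for AT3G03790, an ankyrin repeat protein gene with 111, 131, 47.7 and 43.8 CPM and 26.99, 26.3, 35.9 and 40.4 CPM, whose fall (log2 fold change -1.12, edgeR adjusted p = 0.0302) was not called without any one of the 4 unnoted libraries. The difference was 2.14 for PAL4, 2.28 for AT3G15450, 1.66 for STY46, 2.12 for PELPK1, 2.18 for WR3, 3.35 for LTI78 and -3.34 for CYP702A5. What sets the library sets apart was not tested.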

How the results depend on the processing

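Calls over all genes numbered 2666 to 3533 with each library left out in turn (1269 to 1762 higher, 1361 to 1857 lower), 2689 without the set term, 4306 with 8 libraries, 4428 with no filter, 3798 with DESeq2 size factors and 4294 with DESeq2. The unnoted libraries alone gave 2162 (1027 higher, 1135 lower), and 1358 passed with a 2-fold threshold added. The interaction count of 22 became 764 with no filter and 6 with all 16 libraries. A replicate block gave 3540 calls (1646 higher, 1894 lower), and of the named genes SUS1 (0.93), STY46 (-0.93) and AT3G15450 (-1.23) lost their call under it. Of 131 named genes called, 119 kept the call without each library. With the direction unchanged, the call was lost for 13 named genes in the unnoted set, among them LOS2, and for 9 in the noted set. It was also lost for 9 with no set term, among them PEPC1. The cytokinin count of 11 was 7 without 3 h replicate 3 or replicate 4 and in the unnoted set. Leaving out each library gave 24 core, 26 to 28 regulatory, 14 mitochondrial, 11 to 13 small heat shock, 21 to 22 large chaperone and 14 to 16 falling phosphate genes. With the 250 bases before the start alone, the mitochondrial motif was in 26.7% of its list and 1.05% of all promoters. In that window TGGGC was in 54.2% of core, 43.75% of regulatory particle and 25.3% of all promoters. The heat shock unit was in 43.75% of small heat shock and 15.8% of all promoters. The direction turned for RPN12b (-0.0616) and CYP702A5 (0.14) in the unnoted set, for PAL4 (0.73) in the noted set, and for PELPK1 with no set term (-0.10), in the unnoted set (-0.83) and without single libraries (range over the 8 libraries left out -0.14 to 0.39). The cause was not tested. Low genes limit precision: at 6646134 counts, 1 CPM is few reads.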

Other observations

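Gene families counted by the words of their annotation moved unevenly, against 8.68% of all tested genes called higher and 9.24% called lower. A count given as down to a lower one is the lowest found when each library was left out in turn, with the library or libraries that gave it. Of 104 tested MYB family genes 2 rose (down to 1 without 3 h replicate 1) and 22 fell. Of 106 bHLH genes 5 rose (down to 1 without 3 h replicate 3) and 21 fell. NAC genes rose at 16 of 72 and fell at 7 (down to 4 without 3 h replicate 1). Of 11 AN1 and A20 zinc finger genes 6 rose and none fell. Of 105 ERF and AP2 genes 10 rose and 15 fell, and of 57 WRKY genes 7 rose and 4 fell (down to 2 without untreated replicate 3, untreated replicate 4 or 3 h replicate 4). Among enzymes, 22 of 117 UDP-glycosyltransferases rose and 15 fell (down to 9 without untreated replicate 2), and 20 of 183 cytochrome P450 genes rose and 27 fell. Genes of AAA ATPases, a family that includes the proteasome ATPases, rose at 27 of 175 and fell at 18 (down to 10 without untreated replicate 4 or 3 h replicate 3).

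Families of ubiquitin ligase parts were counted in the same way. RING proteins rose at 25 of 271 genes (down to 16 without 3 h replicate 3) and fell at 16 (down to 8 without untreated replicate 2). F-box proteins rose at 14 of 185 genes (down to 7 without untreated replicate 4) and fell at 10 (down to 5 without untreated replicate 2 or 3 h replicate 3). Of 35 U-box genes 2 rose and 2 fell, and either count was 1 to 3 when single libraries were left out. Of 260 pentatricopeptide protein genes, which act on RNA in organelles, 9 rose and 17 fell (down to 10 without untreated replicate 4). Of 322 genes named as ribosomal proteins 9 rose (down to 2 without untreated replicate 3) and 3 fell. The number that fell was 1 to 7 when each library was left out in turn. No gene of 47 tested in the mitochondrial genome was called, and 1 of 96 in the plastid genome fell, a call lost without untreated replicate 4 or 3 h replicate 1, 2 or 3. In the noted set alone 5 mitochondrial genes rose, in the unnoted set alone 52 plastid genes fell, and 10 did with the 8 libraries only. Of 47 histone genes none rose and 7 fell, and 3 fell without untreated replicate 2 or without 3 h replicate 4.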
